A study of Mus musculus with 6 samples.

Results

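The actin cytoskeleton and Arp2/3 machinery was followed through 54 genes, taken by name from a fixed list of actins, Arp2/3 subunits and their activators, and filament-binding and adhesion proteins. All 54 were found among the 54532 genes of the deposited table, each in a single entry. The samples were primary macrophages from wild-type (WT) mice, 3 pretreated with rmMETRNL and 3 with vehicle for 6 h, and all 6 were then challenged with Candida albicans, a yeast that also grows as hyphae, for 6 h. The treatment is named for METRNL (meteorin-like), a secreted protein. The fungus was given to all 6 samples, so only the pretreatments were compared and no response to the fungus itself was measured. The labels used here give no strain, age or tissue of origin for the macrophages. They also leave unsaid if the 3 samples per group are separate animals or cultures, so p-values measure spread between samples that may be technical. The table abbreviates the groups in its column names, and the columns with the letter r were read as rmMETRNL. All directions in the text depend on this. In bulk samples, fewer cells of a type and less RNA per cell cannot be told apart.

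Macrophages engulf fungi by pushing the plasma membrane around the particle with a branched network of actin filaments. The network is nucleated by the Arp2/3 complex, which binds the side of an existing filament and starts a branch once it is switched on by proteins of the WASP and WAVE families, themselves recruited by the GTPases Cdc42 and Rac. Other proteins supply monomers, cap or elongate filament ends, sever and recycle old filaments, bundle or crosslink the network, or tie it to the membrane and to integrins. Cytoplasmic actin in macrophages is made from a pair of genes, Actb and Actg1, whose proteins are nearly identical.

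The start of the coding sequence shows how close the pair is, and why reads of one can be told from reads of the other. The opening 60 coding bases are given on the coding strand, 5′ to 3′, from the longest protein-coding GENCODE M21 transcript of each gene, with the bases that differ between the genes in capitals. In all, 9 of these 60 bases differ.
Actb: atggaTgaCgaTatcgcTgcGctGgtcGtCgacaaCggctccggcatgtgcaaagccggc
Actg1: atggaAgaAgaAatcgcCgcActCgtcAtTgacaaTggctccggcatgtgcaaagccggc
Over the whole coding sequence of 1125 bases the genes differed at 128 bases (88.6% identity), and the encoded proteins of 375 residues differed at 4 residues. Of the 31-base words of the Actb coding sequence, 9.68% also occur in that of Actg1. Copies elsewhere in the genome matter more: 35.1% of the 31-base words of the longest Actb transcript and 57.1% of those of Actg1 occur in at least 1 other gene, pseudogenes included. How the counting treated reads that match several genes is not given in the sources used here, so the values of both genes are uncertain to that extent. In all, 13 of the 54 genes share over 10% of their 31-base words with another gene, among them Cfl1 (16.4%), Lcp1 (16.4%), Coro1b (15.6%), Twf1 (17.8%), Arpc1b (22.5%) and Myl6 (10.8%).

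Many actin cytoskeleton genes are known targets of serum response factor (SRF), a transcription factor that is activated through its cofactor MRTF when free actin monomer is low and that binds the CArG box. Promoter sequences from RefSeq (GRCm38.p6), covering 250 bases before to 50 bases after the start of each gene, were matched by symbol for 48 of the 54 genes, not including Actb. A CArG box, whose pattern reads the same on both strands, lay in the promoter of 5 of the 48 (10.4%), namely Actg1, Arpc4, Myl6, Myo1e and Vcl, against 1.61% of the promoters of 6955 genes averaging 1 FPKM or more and 1.81% of all 27025 genes with a promoter. The match is a description of these letters and no evidence of binding. The 100 bases around the box are shown for 3 of these genes, chosen for their different roles, an actin, a myosin light chain and an adhesion protein, 5′ to 3′ on the strand of the gene with the box in capitals.
Actg1 (GRCm38.p6, chr11:120348531-120348630, minus strand): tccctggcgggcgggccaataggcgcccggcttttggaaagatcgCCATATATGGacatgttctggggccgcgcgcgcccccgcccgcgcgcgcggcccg
Myl6 (GRCm38.p6, chr10:128493010-128493109, minus strand): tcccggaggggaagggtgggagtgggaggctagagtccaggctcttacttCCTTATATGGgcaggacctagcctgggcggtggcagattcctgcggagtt
Vcl (GRCm38.p6, chr14:20929148-20929247, plus strand): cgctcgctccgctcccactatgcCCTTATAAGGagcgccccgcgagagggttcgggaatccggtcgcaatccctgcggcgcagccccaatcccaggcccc
The box began 90 bases before the RefSeq start of Actg1, 50 before that of Myl6 and 227 before that of Vcl. The Myl6 bases shown lie inside the span of the gene that was counted, 128490860 to 128494145. The RefSeq start used for Myl6 is therefore not the 5′ end of that span.

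Values are FPKM, fragments per kilobase of gene scaled by the authors to a common library size. They resolved into whole reads (or read pairs), 13235001 to 18145733 per library, so that 10 reads in a gene of 1 kb correspond to 0.549 to 0.748 FPKM. All 12 macrophage markers checked were above 1 FPKM, summing to 12265 to 12786 FPKM with rmMETRNL and 12394 to 13328 FPKM with vehicle, with Lyz2 (lysozyme) highest at 5567 ± 139 FPKM with rmMETRNL and 5460.1 ± 382 FPKM with vehicle (mean ± SD, n = 3 each, as for all such values). The extraction protocol in the labels mentions retinas, yet 0 of 8 retina markers reached 1 FPKM, and Crx and Rpe65 were listed at 0 in every library. The retina list summed to 0.623 to 0.867 FPKM with rmMETRNL and 0.446 to 0.546 FPKM with vehicle, mostly Pde6b (0.522 ± 0.170 FPKM with rmMETRNL and 0.351 ± 0.0687 FPKM with vehicle). Of 9 endothelial and platelet markers 4 reached 1 FPKM, and the list summed to 83.4 to 90.6 FPKM with rmMETRNL and 63.9 to 78.2 FPKM with vehicle, mostly Pf4 (77.4 ± 3.89 FPKM with rmMETRNL and 60.8 ± 7.26 FPKM with vehicle). These last 2 sums did not overlap between the groups, and their part in the results was not tested. The sums of the other lists overlapped. Fibroblast and smooth muscle markers (4 of 12 at 1 FPKM, Dcn highest) summed to 12.2 to 13.3 FPKM with rmMETRNL and 12.5 to 13.1 FPKM with vehicle, and mesothelial and epithelial ones (1 of 9, Krt19) to 3.43 to 5.37 FPKM with rmMETRNL and 4.10 to 4.56 FPKM with vehicle. Neutrophil markers (1 of 8, Retnlg, with Elane at 0) summed to 7.03 to 8.40 FPKM with rmMETRNL and 5.96 to 8.82 FPKM with vehicle. T and NK cell markers (2 of 8, Gzmb highest) summed to 4.90 to 7.93 FPKM with rmMETRNL and 4.90 to 6.55 FPKM with vehicle, and B cell markers (3 of 6, Ighm highest) to 18.5 to 21.2 FPKM with rmMETRNL and 17.3 to 21.99 FPKM with vehicle.

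The comparison asked how an rmMETRNL pretreatment, set against vehicle, alters the genes that build and remodel actin in macrophages that then meet the fungus. The differences were small, with log2 fold changes from -0.25 (Actb) to 0.34 (Wasl) on the log2(FPKM + 1) scale. Of the 14 genes with an unadjusted p under 0.05, 12 were lower with rmMETRNL: the actin gene Actb, the monomer-binding genes Pfn1, Tmsb4x and Twf2, the Arp2/3 subunit gene Arpc3, the severing and disassembly genes Coro1a, Coro1b, Gsn and Dstn, the GTPase gene Rac1, the membrane linker gene Ezr and the myosin light chain gene Myl6. The other two, higher with rmMETRNL, were Wasl, an activator of Arp2/3, and Cdc42se1, which encodes a small protein that binds Cdc42. None of these passed the adjusted threshold in limma, and 3 of them did in voom, as given next.

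Limma on log2(FPKM + 1), fitted to the 9867 genes averaging 1 FPKM or more, called 0 of these at an adjusted p of 0.05 (Benjamini-Hochberg). Thus 0 of the 53 tested genes of the machinery passed, and the share called over all genes was 0%. The lowest adjusted p among the 53 was 0.151, shared by Wasl and Cdc42se1. An unadjusted p under 0.05 was found for 14 of the 53, of which 2 were higher and 12 lower with rmMETRNL. Over all genes tested 14.7% had such a p, 7.54% higher and 7.13% lower. In 17 of the 53 the values of the groups did not overlap, against 21.5% of all genes tested. Of these, 14 had every rmMETRNL value below every vehicle value (10.6% of all genes) and 3 had every one above (10.9% of all genes). The median log2 fold change was -0.03, with 35 of 53 negative, beside a median of -0.00562 over all genes, of which 51.6% were negative. Limma voom on the recovered reads, which weights each value by its depth, called 61 of the 9867 genes, or 0.618% (0.405% higher and 0.213% lower with rmMETRNL). It called 3 of the 53: Actb lower (adjusted p = 0.0231), and Wasl (adjusted p = 0.0258) and Cdc42se1 (adjusted p = 0.0494) higher with rmMETRNL. The 1 gene not tested was Enah, of the Ena/VASP family, which had 6 to 16 reads per library.

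**Figure D1:**
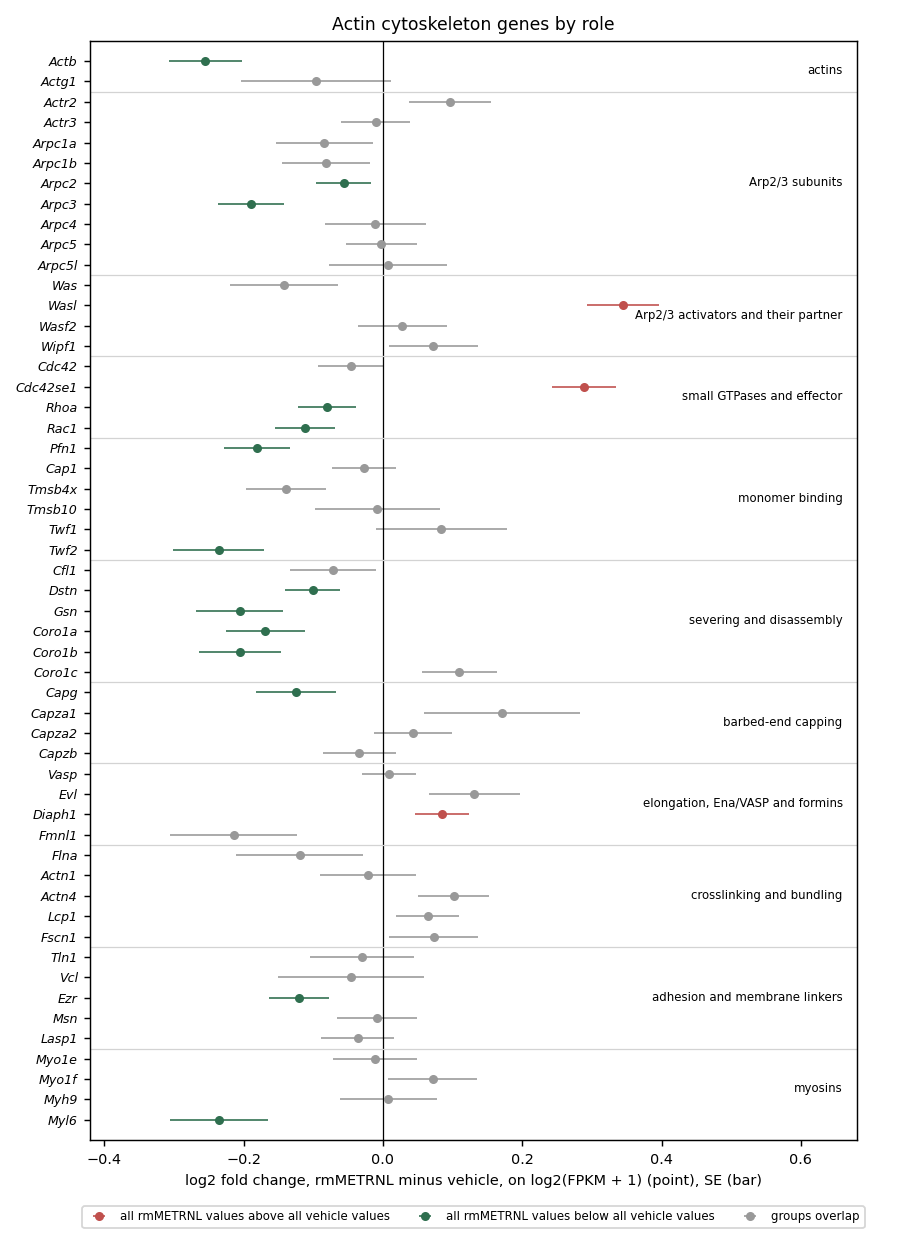
Log2 fold change, rmMETRNL minus vehicle, on log2(FPKM + 1) with its SE for the 53 tested genes, from top to bottom in order of role, coloured by whether the 3 values of each group overlap. The 14 genes lying wholly below vehicle include Actb and 4 of the 6 severing and disassembly genes, and the 3 lying wholly above are Wasl, Cdc42se1 and Diaph1. Of all genes tested 10.6% lay wholly below and 10.9% wholly above.

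The actins were the most abundant transcripts of the machinery. Actb (ENSMUSG00000029580, chromosome 5, 142903115 to 142906754, GRCm38) had 2575, 2538 and 2653 FPKM with rmMETRNL, against 2962, 3297 and 3016 FPKM with vehicle. Every rmMETRNL value lay below every vehicle value, and the log2 fold change was -0.25 ± 0.05 (SE, adjusted p = 0.189 in limma). Actg1 (ENSMUSG00000062825, chromosome 11, 120345690 to 120348542) had 2707, 2750.1 and 2648 FPKM with rmMETRNL, against 3189, 2407 and 3134 FPKM with vehicle. Its groups overlapped because vehicle library 2 was the lowest of the 6, while the same library had the highest Actb value, and the log2 fold change was -0.10 ± 0.11 (SE, adjusted p = 0.726 in limma). Without vehicle library 2 the log2 fold changes were -0.21 for Actb and -0.23 for Actg1, with adjusted p-values of 0.366 and 0.361 in limma. Without vehicle library 1 or 3 Actg1 was at -0.02 and -0.04 instead, so its value depended on which vehicle library was left out, while Actb ran from -0.28 to -0.21 over all 6 omissions. With quantile normalization the log2 fold changes were -0.10 for Actb (adjusted p = 0.443 in limma) and -0.04 for Actg1. The sum of both actins was 5281, 5288 and 5301 FPKM with rmMETRNL, against 6151, 5704 and 6149.99 FPKM with vehicle. The sums did not overlap. As a share of all FPKM in a library the actins made up 1.40, 1.40 and 1.46% with rmMETRNL, against 1.65, 1.52 and 1.60% with vehicle. Of the other actin genes, Acta2, the smooth muscle actin, stood at 3.34 ± 0.427 with rmMETRNL and 3.83 ± 0.458 FPKM with vehicle.

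**Figure D2:**
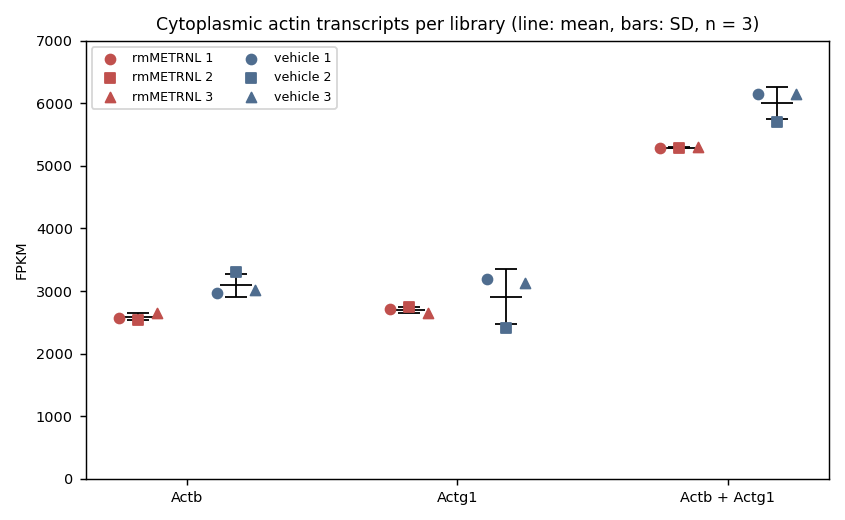
FPKM of Actb, Actg1 and their sum in each library (points, 1 marker per replicate number), with the mean and SD of each group of 3. Vehicle library 2 is highest for Actb and lowest for Actg1, and the 3 rmMETRNL sums, 5281 to 5301 FPKM, lie below the 3 vehicle sums, 5704 to 6151 FPKM.

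The subunits of the Arp2/3 complex, which assemble into 1 complex, spanned a wide range of transcript levels and differed little between the groups. Arpc2, a core subunit that contacts the mother filament, was the most abundant, with 297.7, 294 and 293 FPKM with rmMETRNL, against 298.1, 306 and 316 FPKM with vehicle. Its groups were separated by a narrow margin, and its log2 fold change was -0.06 (adjusted p = 0.555 in limma). Actr3 and Actr2 encode the actin-related subunits, which mimic the first actins of the new branch. Actr3 had 172, 185 and 176 FPKM with rmMETRNL, against 171, 181 and 185 FPKM with vehicle. Actr2 had 107, 112 and 117 FPKM with rmMETRNL, against 97.7, 108 and 109 FPKM with vehicle. Both genes overlapped between the groups, with log2 fold changes of -0.01 and 0.10. Actr3 is uncertain, since 63.6% of its 31-base words recur elsewhere in the annotation. Arpc3 (ENSMUSG00000029465, chromosome 5, 122391878 to 122414184) had 146, 149 and 136 FPKM with rmMETRNL, against 163, 165 and 164 FPKM with vehicle. The rmMETRNL values all lay below the vehicle values, which were nearly equal to each other, and the log2 fold change was -0.19 ± 0.05 (SE, adjusted p = 0.231 in limma and 0.102 in voom). None of its 31-base words occurs in another gene.

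Arpc5 stood at 168 ± 4.14 with rmMETRNL and 169 ± 8.88 FPKM with vehicle and Arpc4 at 71.5 ± 6.40 with rmMETRNL and 71.9 ± 2.92 FPKM with vehicle, with log2 fold changes of -0.0023 and -0.01. Arpc4 shares 12.2% of its exon bases with other genes, the most with Ttll3 on the same strand. The subunits that have a paralog showed a clear order: Arpc1b, the form most abundant in blood cells, had 117 ± 8.06 with rmMETRNL and 124 ± 5.50 FPKM with vehicle, where Arpc1a had 17.7 ± 1.30 with rmMETRNL and 18.8 ± 1.05 FPKM with vehicle, and Arpc5 stood far above Arpc5l, at 4.24 ± 0.363 with rmMETRNL and 4.22 ± 0.398 FPKM with vehicle. Arpc1b shares 18.2% of its exon bases with other genes, the most with Pdap1 on the other strand. Whether the counting used the strand is not given in the sources used here. Of the 9 subunits, 7 had a negative log2 fold change, where 51.6% of all genes tested did. Those of Actr3, Arpc4 and Arpc5 were very small, at -0.01, -0.01 and -0.0023. An unadjusted p under 0.05 was found for 1 of the 9, Arpc3, where 14.7% of all genes tested had such a p. Their summed level was 1109.7, 1129.7 and 1082 FPKM with rmMETRNL, against 1112, 1154 and 1160.2 FPKM with vehicle. The sums overlapped.

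**Figure D3:**
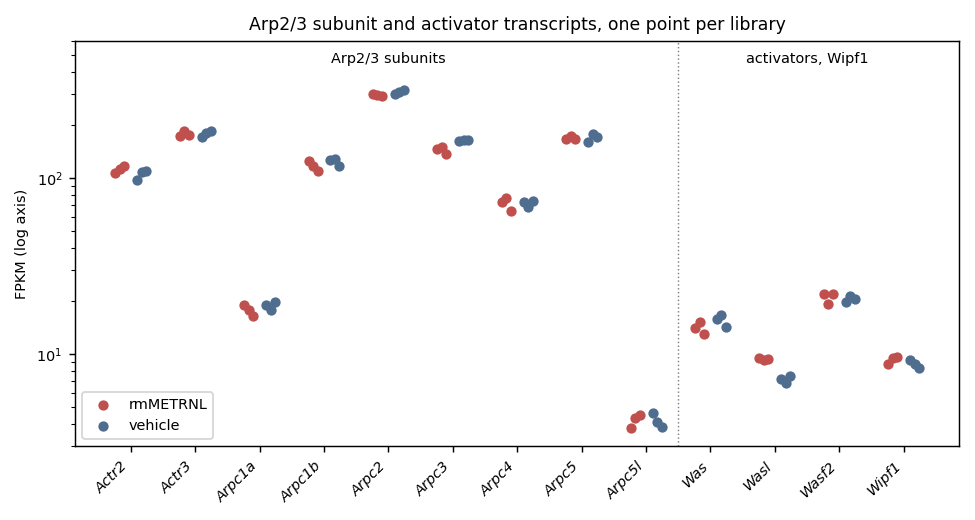
FPKM on a log axis of the 9 Arp2/3 subunit genes and of 3 activator genes and Wipf1, 1 point per library, rmMETRNL left of vehicle for each gene. Subunit levels run from a mean of 4.23 FPKM over the 6 libraries (Arpc5l) to 301 FPKM (Arpc2), and Wasl is the gene in which the groups stand farthest apart.

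The activators of Arp2/3 had log2 fold changes of either sign. Wasl (ENSMUSG00000029684, chromosome 6, 24613805 to 24665009), which encodes N-WASP, the widely expressed activator that acts below Cdc42, had 9.496, 9.30 and 9.39 FPKM with rmMETRNL, against 7.24, 6.87 and 7.46 FPKM with vehicle. The rmMETRNL values were close together and all above the vehicle values, and the log2 fold change was 0.34 ± 0.05 (SE, adjusted p = 0.151 in limma). Leaving out 1 library at a time gave 0.32 to 0.37. Was (ENSMUSG00000031165, chromosome X, 8081453 to 8090498), its blood-cell relative WASP, which is needed for macrophage podosomes, had 14.1, 15.1 and 12.9 FPKM with rmMETRNL, against 15.9, 16.6 and 14.3 FPKM with vehicle. These groups overlapped, with a log2 fold change of -0.14 (adjusted p = 0.453 in limma). Wasf2, or WAVE2, which acts below Rac, was the most abundant activator and had 21.9, 19.3 and 21.8 FPKM with rmMETRNL, against 19.8, 21.4 and 20.6 FPKM with vehicle. Its groups were not separated. Wipf1, whose product WIP binds and stabilises WASP, stood at 9.32 ± 0.507 with rmMETRNL and 8.82 ± 0.488 FPKM with vehicle. As a share of the summed FPKM of Wasl and Was, Wasl made up 40.2, 38.1 and 42.1% with rmMETRNL, against 31.3, 29.3 and 34.3% with vehicle. These shares did not overlap.

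Of the 4 genes of the GTPases and their effector, 3 were separated, 1 above and 2 below vehicle. Of all genes tested 21.5% were separated, 10.9% above and 10.6% below. Cdc42 was the most abundant of the 4, with 197, 203 and 200.3 FPKM with rmMETRNL, against 195, 213 and 211 FPKM with vehicle. Its groups overlapped. Cdc42se1 (ENSMUSG00000046722, chromosome 3, 95228732 to 95236409), whose product binds the active form of Cdc42, had 25.2, 25.6 and 25.9 FPKM with rmMETRNL, against 20.3, 20.4 and 21.5 FPKM with vehicle. All rmMETRNL values were above all vehicle values (log2 fold change 0.29 ± 0.05 SE, adjusted p = 0.151 in limma). Rac1, the GTPase above WAVE, had 62.7, 65.2 and 60.9 FPKM with rmMETRNL, against 67.1, 68.7 and 68.2 FPKM with vehicle, all rmMETRNL values below all vehicle values, with a log2 fold change of -0.11 (adjusted p = 0.320 in limma). Its value is uncertain because 51.4% of its exon bases overlap other genes, the most with Daglb on the other strand. Rhoa, which drives actomyosin contraction and formins, stood at 66.2 ± 1.94 with rmMETRNL and 70.0 ± 0.575 FPKM with vehicle and also lay wholly below vehicle, with a log2 fold change of -0.08 (adjusted p = 0.420 in limma).

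The proteins that hold and deliver actin monomers were highly expressed. Tmsb4x, which encodes thymosin beta-4, the main monomer-sequestering peptide, had 784, 774 and 731 FPKM with rmMETRNL, against 783, 879 and 861 FPKM with vehicle. The groups overlapped by a small margin, with vehicle library 1 just under the highest rmMETRNL library (log2 fold change -0.14 ± 0.06 SE, adjusted p = 0.333 in limma). Tmsb10, its paralog, stood at 472 ± 46.2 with rmMETRNL and 474 ± 37.7 FPKM with vehicle, though 52.4% of its 31-base words recur elsewhere in the annotation. Pfn1 (ENSMUSG00000018293, chromosome 11, 70651850 to 70654644), which encodes profilin, the carrier of ATP-actin to growing ends, had 337, 326 and 305 FPKM with rmMETRNL, against 365, 369 and 363 FPKM with vehicle. The vehicle values were within a narrow band and every rmMETRNL value was below it, and the log2 fold change was -0.18 ± 0.05 (SE, adjusted p = 0.238 in limma and 0.103 in voom). Cap1, which recycles monomers, stood at 207 ± 7.97 with rmMETRNL and 211 ± 5.68 FPKM with vehicle. Of the twinfilin genes, whose products bind monomers and cap ends, Twf2 had 11.6, 12.2 and 11.2 FPKM with rmMETRNL, against 14.8, 14.0 and 12.9 FPKM with vehicle. Its paralog Twf1 had 10.7, 12.6 and 13.9 FPKM with rmMETRNL, against 12.2, 11.2 and 11.4 FPKM with vehicle. Only the Twf2 values were separated (log2 fold change -0.24, adjusted p = 0.240 in limma). Twf1 shares 12.9% of its exon bases with other genes, the most with Irak4 on the other strand.

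In the severing and disassembly group 4 of 6 genes were separated, all lower with rmMETRNL, where 10.6% of all genes tested lay wholly below vehicle. Cfl1, or cofilin, the main severing protein, was the most abundant and overlapped between the groups. It had 577, 603 and 530.2 FPKM with rmMETRNL, against 572, 628 and 597 FPKM with vehicle. Cfl1 shares 16.5% of its exon bases with other genes, the most with Snx32 on the other strand. Its relative Dstn (destrin) had 224, 233 and 225 FPKM with rmMETRNL, against 242, 239 and 250.1 FPKM with vehicle. Its log2 fold change was -0.10 (adjusted p = 0.324 in limma). Gsn, which encodes the calcium-activated severing and capping protein gelsolin, had 51.0, 49.4 and 45.4 FPKM with rmMETRNL, against 58.5, 57.0 and 53.0 FPKM with vehicle. Its log2 fold change was -0.21 (adjusted p = 0.256 in limma). Coro1a, the coronin of leukocytes, had 163, 162 and 147 FPKM with rmMETRNL, against 185, 171 and 175 FPKM with vehicle. Coro1b (ENSMUSG00000024835, chromosome 19, 4148619 to 4154035), a coronin that takes part in debranching Arp2/3 networks, had 91.4, 85.1 and 81.9 FPKM with rmMETRNL, against 105, 97.9 and 95.5 FPKM with vehicle. Their log2 fold changes were -0.17 and -0.21 (adjusted p = 0.281 and 0.244 in limma). Coro1b shares 13.5% of its exon bases with other genes, the most with Ptprcap on the same strand. The lowest value of Gsn, Coro1a and Coro1b was that of rmMETRNL library 3. Coro1c had a positive log2 fold change of 0.11, at 15.1, 15.8 and 16.3 FPKM with rmMETRNL and 15.2, 14.3 and 14.0 FPKM with vehicle, and its groups overlapped.

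Of the barbed-end capping genes, Capg, which encodes a capping protein abundant in macrophages, was the highest, with 536, 539 and 479.9 FPKM with rmMETRNL, against 563, 581 and 550.1 FPKM with vehicle. Its values were separated, with a log2 fold change of -0.12 (adjusted p = 0.369 in limma). The subunits of the capping protein heterodimer overlapped between groups, with Capzb at 159 ± 9.72 with rmMETRNL and 163 ± 1.47 FPKM with vehicle, Capza2 at 45.05 ± 1.51 with rmMETRNL and 43.7 ± 2.47 FPKM with vehicle and Capza1 at 44.8 ± 5.89 with rmMETRNL and 39.6 ± 3.99 FPKM with vehicle. Relative to its mean, Capza1 varied the most between libraries of this set, and 80.3% of its 31-base words recur elsewhere in the annotation.

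None of the 4 elongation genes tested had an unadjusted p under 0.05, where 14.7% of all genes tested did. Vasp, which protects growing ends from capping, had 110.03, 112 and 108 FPKM with rmMETRNL, against 110.1, 111 and 107 FPKM with vehicle, a log2 fold change of 0.01. Its relative Evl stood at 6.95 ± 0.483 with rmMETRNL and 6.25 ± 0.265 FPKM with vehicle, and Enah at 0.0386 ± 0.00568 with rmMETRNL and 0.0309 ± 0.01002 FPKM with vehicle, below the level tested. The formin gene Diaph1, whose product elongates unbranched filaments below Rhoa, stood at 49.0 ± 0.521 with rmMETRNL and 46.2 ± 0.408 FPKM with vehicle and lay wholly above vehicle, with a log2 fold change of 0.08 (adjusted p = 0.368 in limma). Fmnl1, a formin of blood cells, had 17.2, 14.6 and 15.7 FPKM with rmMETRNL, against 20.6, 16.7 and 18.5 FPKM with vehicle. The groups overlapped (log2 fold change -0.21, unadjusted p = 0.0514 and adjusted p = 0.342 in limma).

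None of the 5 crosslinking and bundling genes was separated between the groups, where 21.5% of all genes tested were. Lcp1, which encodes L-plastin, the filament bundler of leukocytes, had 270.2, 276 and 289.95 FPKM with rmMETRNL, against 268, 273 and 258 FPKM with vehicle. Flna, the filamin that crosslinks filaments into orthogonal networks, stood at 161 ± 16.8 with rmMETRNL and 175 ± 14.2 FPKM with vehicle. The alpha-actinin genes Actn4 and Actn1 had different levels, with 78.7, 77.2 and 78.8 FPKM with rmMETRNL, against 77.4, 71.7 and 69.5 FPKM with vehicle for Actn4. Actn1 had 39.6 ± 2.93 with rmMETRNL and 40.1 ± 2.24 FPKM with vehicle. Fscn1, the filopodial bundler fascin, stood at 12.7 ± 0.914 with rmMETRNL and 12.0 ± 0.399 FPKM with vehicle.

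Of the linkers to integrins and membrane, 1 of 5 was separated between the groups, where 21.5% of all genes tested were. Msn, which encodes moesin, the main membrane linker of leukocytes, had 279, 289.9 and 311 FPKM with rmMETRNL, against 301, 305 and 279.8 FPKM with vehicle. Ezr (ezrin), its relative, had 86.6, 90.4 and 86.7 FPKM with rmMETRNL, against 93.8, 98.7 and 94.5 FPKM with vehicle, wholly below vehicle, and the log2 fold change was -0.12 ± 0.04 (SE, adjusted p = 0.298 in limma). Talin and vinculin, which connect integrins to filaments, stood at 74.4 ± 4.50 with rmMETRNL and 76.1 ± 6.29 FPKM with vehicle for Tln1 and 15.9 ± 2.29 with rmMETRNL and 16.3 ± 1.19 FPKM with vehicle for Vcl, and Lasp1, a podosome protein, at 67.7 ± 1.85 with rmMETRNL and 69.5 ± 3.64 FPKM with vehicle. Vcl shares 25.5% of its exon bases with other genes, the most with Ap3m1 on the other strand.

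Of the myosin genes, Myl6 (ENSMUSG00000090841, chromosome 10, 128490860 to 128494145), the essential light chain of nonmuscle myosin, was the most abundant, with 111, 116 and 104 FPKM with rmMETRNL, against 119.8, 139.8 and 130.4 FPKM with vehicle. Its values did not overlap, and the log2 fold change was -0.24 ± 0.07 (SE, adjusted p = 0.254 in limma and 0.0962 in voom). The heavy chain gene Myh9 of the same motor stood at 88.0 ± 5.46 with rmMETRNL and 87.6 ± 6.08 FPKM with vehicle. The class I myosins of the phagocytic cup were Myo1e, with 35.6, 37.0 and 35.8 FPKM with rmMETRNL, against 38.8, 36.9 and 33.7 FPKM with vehicle, and Myo1f, with 24.2, 24.8 and 25.9 FPKM with rmMETRNL, against 25.5, 23.7 and 22.004 FPKM with vehicle. Both overlapped between the groups.

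Shares within a library do not depend on its scaling, so 16 pairs of paralogs or partner genes were compared as the share of the first in their summed FPKM. A trend with gene length within a library, given below for rmMETRNL library 3, can still enter these shares. In 5 of the 16 the shares of the groups did not overlap, and 3 against 3 libraries cannot give an exact permutation p below 0.1, which all 5 reached (two-sided, adjusted p = 0.320 over the 16 pairs). Besides Wasl and Was, the share of Twf1 in the twinfilins was 47.9, 50.9 and 55.5% with rmMETRNL, against 45.1, 44.4 and 47.0% with vehicle. Of its sum with Coro1a, Coro1c made up 8.48, 8.88 and 9.99% with rmMETRNL, against 7.58, 7.75 and 7.41% with vehicle. Of the sum of the actin-related subunits Actr2 and Actr3, Actr2 made up 38.3, 37.7 and 39.9% with rmMETRNL, against 36.3, 37.3 and 37.1% with vehicle. Of the sum of the class I myosins, Myo1e made up 59.5, 59.9 and 58.0% with rmMETRNL, against 60.3, 60.9 and 60.5% with vehicle, the 1 pair of these in which the share was lower with rmMETRNL. In all 5 pairs rmMETRNL library 3 held the share farthest from vehicle. The first gene is the longer in each, with 6165 bases for Wasl and 2381 for Was, and 5704 for Myo1e and 4914 for Myo1f. Its share was higher with rmMETRNL in 4 pairs and lower for Myo1e. The part of gene length in these shares was not tested. The paralogs of Arp2/3 subunits had close shares, with Arpc1a at 13.2 ± 0.152% with rmMETRNL and 13.2 ± 1.11% with vehicle, and Arpc5l at 2.46 ± 0.205% with rmMETRNL and 2.45 ± 0.340% with vehicle. Of the actins, Actb made up 48.8, 48.0 and 50.04% with rmMETRNL, against 48.2, 57.8 and 49.0% with vehicle.

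**Figure D4:**
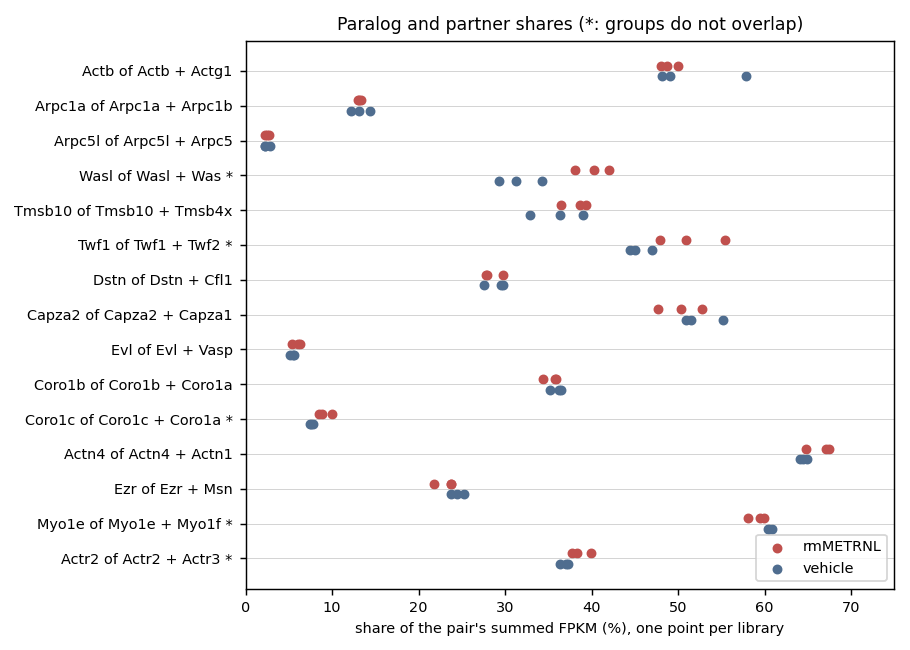
Share of the named gene in the summed FPKM of its pair in each library, rmMETRNL above vehicle for each of the pairs, with an asterisk where the groups do not overlap. The widest gap is that of Wasl in the sum with Was, and the pair of Enah and Vasp, in which Enah averaged 0.0350% with rmMETRNL and 0.0283% with vehicle, is not drawn.

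Beyond the 54 genes, 10 lists of other actin regulators held 165 symbols, of which 162 were matched and 126 tested, and gave 0 calls in limma at an adjusted p of 0.05. Of the 126, 20 had an unadjusted p under 0.05, 11 of them above vehicle and 9 below, where 14.7% of all genes tested had such a p, and the median log2 fold change was 0.00504. Voom called 1 of them, Rhob, an early-response relative of Rhoa found on endosomes, at 130.1 ± 1.04 with rmMETRNL and 105 ± 5.43 FPKM with vehicle (adjusted p = 0.0290 in voom and 0.151 in limma). Of all genes tested voom called 0.618%. In the list of other GTPases of the Cdc42, Rac and Rhoa family (11 tested, 2 above and 0 below vehicle at an unadjusted p under 0.05, 3 wholly above vehicle and 0 wholly below), Rhoq stood at 22.1 ± 2.48 with rmMETRNL and 18.3 ± 1.45 FPKM with vehicle and Rnd3 at 1.90 ± 0.139 with rmMETRNL and 1.54 ± 0.114 FPKM with vehicle. Among all genes tested 7.54% were higher and 7.13% lower at that p, and 10.9% lay wholly above and 10.6% wholly below vehicle. Filament-binding and myosin genes outside the 54 were found on both sides, with 3 higher and 4 lower at an unadjusted p under 0.05 among 27 tested. The membrane-bound filament-binding proteins Marcksl1 (206 ± 5.28 with rmMETRNL and 174 ± 4.22 FPKM with vehicle) and Marcks (17.998 ± 1.08 with rmMETRNL and 14.4 ± 0.156 FPKM with vehicle) lay above vehicle, and Tagln2 (transgelin-2, 287 ± 5.66 with rmMETRNL and 323 ± 14.5 FPKM with vehicle) lay below, with adjusted p-values of 0.172, 0.181 and 0.238 in limma.

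Of the WAVE complex, 1 of 7 tested genes had an unadjusted p under 0.05, the higher Abi2 (5.48 ± 0.375 with rmMETRNL and 4.78 ± 0.210 FPKM with vehicle), with Abi1 at 66.1 ± 4.14 with rmMETRNL and 59.8 ± 3.06 FPKM with vehicle and Brk1 at 78.3 ± 4.18 with rmMETRNL and 84.7 ± 3.48 FPKM with vehicle. For comparison, 14.7% of all genes tested reached that p, 7.54% above vehicle and 7.13% below. The counts of the short lists in this paragraph were not tested against these shares and are no result about the lists. Other nucleation factors and inhibitors of Arp2/3 had 1 higher and 2 lower of 13 at that p, led by Whamm (7.47 ± 0.767 with rmMETRNL and 8.88 ± 0.243 FPKM with vehicle), Hcls1, the cortactin relative of blood cells (163 ± 12.5 with rmMETRNL and 188 ± 14.2 FPKM with vehicle), and Jmy (2.52 ± 0.153 with rmMETRNL and 2.06 ± 0.145 FPKM with vehicle). Among 7 other formins, 1 was higher and 0 lower at that p, and Daam1 stood at 8.32 ± 0.261 with rmMETRNL and 6.84 ± 0.166 FPKM with vehicle (log2 fold change 0.25, adjusted p = 0.189 in limma), Diaph2 at 8.71 ± 0.614 with rmMETRNL and 7.84 ± 0.251 FPKM with vehicle and Fhod1 at 2.98 ± 0.397 with rmMETRNL and 3.56 ± 0.468 FPKM with vehicle. Exchange factors (GEFs), activating proteins (GAPs) and GDIs of these GTPases had 2 of 23 at that p, the Rac exchange factor Vav1 (66.1 ± 1.41 with rmMETRNL and 60.2 ± 1.02 FPKM with vehicle) and the Rhoa exchange factor Arhgef1 (11.9 ± 0.935 with rmMETRNL and 13.6 ± 0.537 FPKM with vehicle), and Arhgdib followed at 103 ± 2.52 with rmMETRNL and 92.9 ± 10.7 FPKM with vehicle. Podosome and focal adhesion partners had 2 higher and 2 lower of 16 at that p, with the kindlin-3 gene Fermt3 at 81.4 ± 3.85 with rmMETRNL and 93.2 ± 5.73 FPKM with vehicle, the zyxin gene Zyx at 39.3 ± 1.35 with rmMETRNL and 48.1 ± 7.31 FPKM with vehicle and Lsp1 at 7.75 ± 0.433 with rmMETRNL and 6.74 ± 0.465 FPKM with vehicle. ROCK, PAK and LIM kinases and cofilin phosphatases had 0 of 10 at that p, led by Limk2 (1.63 ± 0.0401 with rmMETRNL and 2.05 ± 0.318 FPKM with vehicle), Pak2 (22.2 ± 0.720 with rmMETRNL and 20.7 ± 0.962 FPKM with vehicle) and Rock2 (8.03 ± 0.350 with rmMETRNL and 7.39 ± 0.543 FPKM with vehicle). The list of SRF and its cofactors had 0 of 8, with Srf at 36.3 ± 2.08 with rmMETRNL and 38.6 ± 3.82 FPKM with vehicle, Fhl3 at 21.7 ± 1.10 with rmMETRNL and 23.6 ± 1.60 FPKM with vehicle and Fhl2 at 1.79 ± 0.0957 with rmMETRNL and 2.22 ± 0.377 FPKM with vehicle. The MRTF cofactors are in the table under their older symbols, Mkl1 at 8.999 ± 0.769 with rmMETRNL and 8.38 ± 0.998 FPKM with vehicle and Mkl2 at 4.53 ± 0.129 with rmMETRNL and 4.32 ± 0.518 FPKM with vehicle. The other actins and actin-related genes had 0 of 4, with Actr1b at 25.3 ± 0.718 with rmMETRNL and 24.6 ± 0.625 FPKM with vehicle and Actr10 at 7.83 ± 0.446 with rmMETRNL and 7.66 ± 0.0846 FPKM with vehicle.

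Seen library by library, the medians were close to each other but the lowest values were not evenly spread over the rmMETRNL samples. The median deviation of the 53 genes from the vehicle mean was -0.05, -0.04 and -0.03 in rmMETRNL libraries 1, 2 and 3, against 0.01, 0.01 and -0.01 in vehicle libraries 1, 2 and 3. Yet rmMETRNL library 3 held the lowest value in 11 of the 14 genes wholly below vehicle, and it held the highest of the 6 values in 13 of the 53. Its deviation across the 9867 genes correlated with log gene length at 0.203, where the other libraries lay between -0.140 and 0.0534. The fold change of the 53 genes correlated with log gene length at 0.350, and that of all 9867 genes at 0.0733, as a description across genes that share the same libraries. The 27 genes of up to 3299 bases had a median log2 fold change of -0.10 and the 26 longer ones one of -0.000708, while all genes tested had -0.04 and 0.00990 on the same sides of that length. Without rmMETRNL library 3, 21 of the 53 genes did not overlap, 17 below and 4 above, against 29.6% of all genes tested (15% below and 14.6% above). In the same 5 libraries 11 of the 53 had an unadjusted p under 0.05 (9 below, 2 above), against 10.4% of all genes tested. Without rmMETRNL library 1, 26 did not overlap, 17 below and 9 above, against 33.9% of all genes tested (16.9% below and 17% above).

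**Figure D5:**
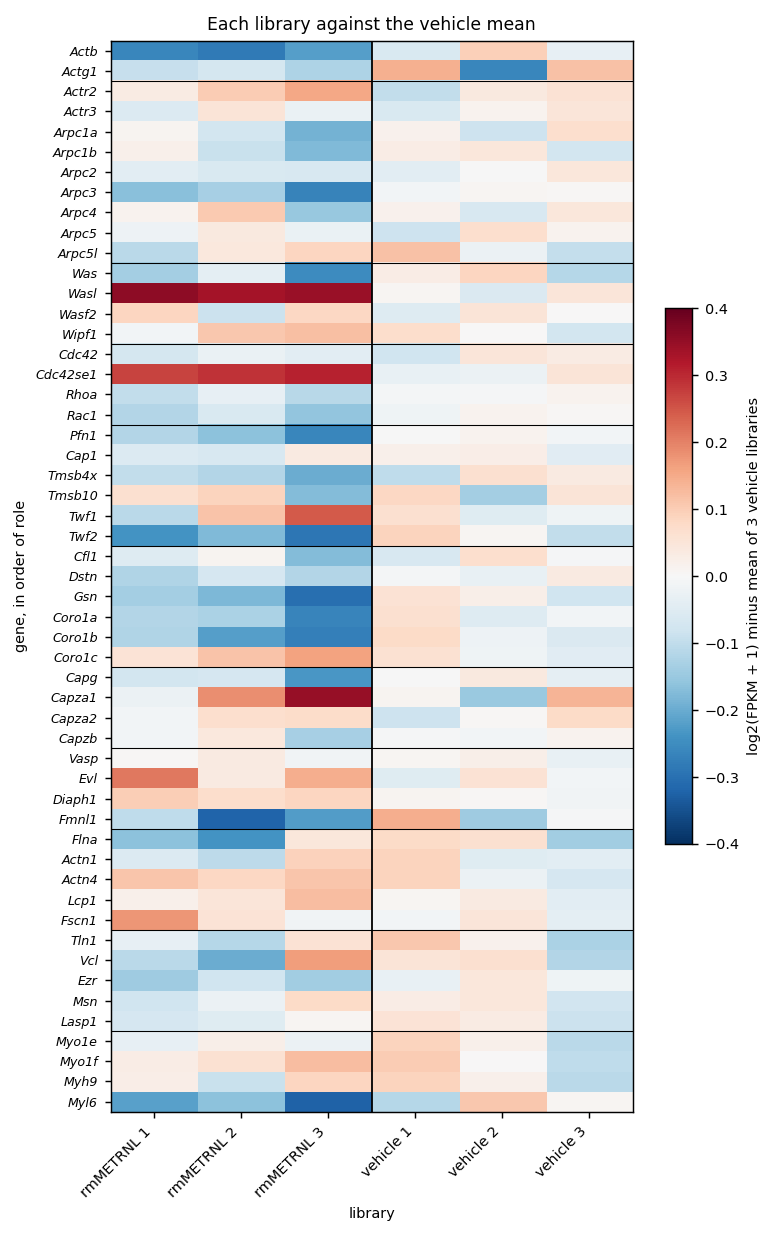
Log2(FPKM + 1) of each of the 53 tested genes in each library minus the mean of the 3 vehicle libraries, rmMETRNL libraries on the left, genes in order of role with lines between roles. Actb, Pfn1, Twf2, Gsn, Coro1a, Coro1b and Myl6 are below the vehicle mean in all 3 rmMETRNL libraries, and Wasl and Cdc42se1 are above it in all 3.

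Summed over the 54 genes, the machinery stood at 12059, 12132 and 11864 FPKM with rmMETRNL, against 13152, 12847 and 13171 FPKM with vehicle. Of all FPKM in a library this was 3.21, 3.22 and 3.26% with rmMETRNL, against 3.52, 3.43 and 3.42% with vehicle. Neither measure overlapped between the groups. Without the actins, the other 52 genes summed to 6778, 6844 and 6562 FPKM with rmMETRNL, against 7001, 7143 and 7021 FPKM with vehicle, which again did not overlap. Of the 11 roles, the actins, monomer binding, severing and disassembly, capping and myosins had sums wholly below vehicle, and none had a sum wholly above. As shares of all FPKM, the actins, monomer binding and severing and disassembly were wholly below vehicle, while capping and myosins overlapped. The sums are weighted by the most abundant genes and carry no test.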

How the data were processed

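RNA was measured in 6 libraries of mouse macrophages, 3 per group. The authors deposited 1 table of FPKM values per gene and library, made on mouse build GRCm38 (also named mm10), per the submitters' processing notes. For the aligner, the counter and the strand setting, the method is not given in the sources used here. There were 0 sample columns left unused. FPKM times gene length was divided by a step fitted to the lowest values of each library. Of the values checked, the non-zero ones of genes with fewer reads, 100% were whole reads within 0.05 reads. The values of genes with more reads were rounded without this check. This gave the depth of each library, 13235001 to 18145733 reads. Intervals on depth cover counting error only.

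The test was limma 3.58.1 (R 4.3.3) with a mean-variance trend on log2(FPKM + 1), for genes averaging 1 FPKM or more, with Benjamini-Hochberg adjustment over all 9867 genes. This scale understates the change of low genes. The script was tested on simulated data. Limma voom on the recovered reads, other pseudocounts (0.1 and 0.01), filters, scalings and variance models, a replicate block and leaving out each library were alternatives. Removing the trend with gene length was added after the data were seen. Shares of gene pairs were compared with a two-sided exact permutation test.

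The 54 genes and all lists were chosen with earlier results of these data known. Values in every library are given for both actins, the most abundant gene and the gene with the smallest p of each role, every gene of the 54 with an unadjusted p under 0.05, Was and Wasl, and both genes of pairs whose shares did not overlap. Of each list of other actin regulators, up to 3 genes with the smallest p are named, and of each marker list the most abundant gene. Overlapping exons and 31-base words shared with other genes were found with the GENCODE M21 annotation (GRCm38).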

Additional observations from a re-analysis of the deposited data

How the results depend on the processing

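Limma called 0 genes in all, and 5 with no filter on low values, 1 after rescaling to TPM, 1 with array weights and 61 with voom. Of the machinery, 0 genes were called in every limma setting run and 3 in voom. The cause of these differences was not tested. The number of genes whose groups did not overlap was 17, and 21 to 26 when 1 library was left out, with 26 (9 above, 17 below) without rmMETRNL replicate 1. The share over all genes tested also rose, from 21.5% to 29.6% without rmMETRNL replicate 3 and 33.9% without rmMETRNL replicate 1. The number with an unadjusted p under 0.05 was 14, and 11 to 13 with 1 library left out. Over all genes tested the share was 14.7%, and 10.4% without rmMETRNL replicate 3. The median log2 fold change was -0.03, -0.0095 after rescaling to TPM, and -0.047 to -0.019 with 1 library left out, lowest without vehicle replicate 3. The adjusted p of Wasl in limma ranged from 0.0950 to 0.392 over the alternatives. Removing the length trend gave 0 calls, 13 genes with an unadjusted p under 0.05 and 18 that did not overlap. With a replicate block limma called 0 genes, and 14 of the 53 had an unadjusted p under 0.05. The share over all genes tested was not worked out with the length trend removed or with a replicate block. These counts therefore cannot be read as a result about the 53. Libraries of the same number did not deviate together (correlations -0.0212, 0.00741 and -0.0454). These correlations cannot show whether samples of the same number shared an animal or a batch, which the labels leave unsaid.

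Of the single genes, only those given with values in every library were followed over all alternatives. Among the others, Myh9 went from 0.0076 in limma to -0.00067 in voom. Signs turned for 5 of the genes that were followed, all close to 0. After rescaling to TPM, Actr3 was at 0.0106, Msn at 0.0121 and Myo1e at 0.0088. Msn was at 0.0376 with quantile normalization and Myo1e at 0.0074 with array weights. With 1 library left out, Actr3 ran from -0.0412 to 0.0137 (above 0 without rmMETRNL replicate 1 or vehicle replicate 3), Msn from -0.0522 to 0.0266 (above 0 without rmMETRNL replicate 1, vehicle replicate 1 or vehicle replicate 2) and Myo1e from -0.0661 to 0.0328 (above 0 without vehicle replicate 1). Vasp ran from -0.0052 to 0.0213 (below 0 without rmMETRNL replicate 2 or vehicle replicate 3) and Wasf2 from -0.0022 to 0.0844 (below 0 without rmMETRNL replicate 1). Values that moved by over 1.5 times without changing sign were those of Actb (-0.10 with quantile normalization), Actg1 (-0.04 with quantile normalization and -0.23 to -0.02 with 1 vehicle library left out), Capg (-0.08 with quantile normalization and -0.07 without rmMETRNL replicate 3), Was (-0.09 without rmMETRNL replicate 3), Fmnl1 (-0.14 without vehicle replicate 1) and Actr2 (0.05 without vehicle replicate 1), among genes at or beyond 0.09 on the log2 scale. The other genes given with values in every library kept the direction of their log2 fold change in every alternative run, and Actb, Wasl and Cdc42se1 passed the threshold in voom. Of the shares, those of Actb, Arpc1a and Arpc5l changed sign in the difference between groups when 1 library was left out, and the 5 shares that did not overlap kept theirs. With 3 libraries a group, differences of the size seen in most of these genes could not be told from the spread between libraries.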
